A study of Mus musculus with 6 samples.

Results

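The macrophage genes of the cultured ureter were a list of 35 genes that mark macrophages and other myeloid cells, matched by symbol to the gene identifiers of the deposited count table. A listed gene was kept when it had at least 10 counts in at least 3 of the 6 samples, which left 33 of the 35 genes, out of 56748 identifiers in the table and 18328 that reached the same minimum. The 2 genes below it were *Cd163*, a scavenger receptor with 0, 3 and 0 counts in control replicates 1 to 3 and 0, 1 and 0 with LiCl, and *Timd4*, a receptor for phosphatidylserine with 7, 9 and 10 counts in the control and 6, 1 and 4 with LiCl. Ureters of wildtype NMRI mouse embryos at E12.5 were explanted and kept in culture for 18 h. The treated group received LiCl at 15 mM, which activates canonical WNT signaling through inhibition of GSK3, and water served as control, with 3 RNA-Seq samples in each group. The explants were whole ureters with epithelium, mesenchyme, vessels and blood cells, from which no macrophages were sorted, and how many ureters went into a sample is not given in the sources used here. Since nothing states that the samples came from separate cultures, p-values measure the spread between these samples, which may be technical.

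Macrophages of the early embryo descend from progenitors of the yolk sac and fetal liver, settle in organ primordia before birth, and take up dead cells, matrix and debris there. Their survival depends on the receptor tyrosine kinase CSF1R, and their identity on the ETS factor PU.1, encoded by *Spi1*. Much of their surface equipment works in modules: the activating Fc receptors of this list and TREM2 have no signaling tail of their own and pair with the adaptors FCER1G or TYROBP, and the complement component C1q is built from the A, B and C chains. Because macrophages carry these genes and most other cells of the ureter do not, a change in the share of macrophages alone would move every gene expressed in them alone by the same factor. The comparison of LiCl with control therefore asked 2 things of these genes, how each one changed and whether they moved as one.

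The total count lay between 28473436 and 31266945 per sample, and the kept members held 6722 to 12751 counts, or 0.0232% to 0.0421% of a sample. In each sample 34 or 35 of the 35 listed genes had at least 1 count. Markers of the labelled tissue were abundant, with a summed level of 1168 to 1463 CPM (counts scaled to library size with TMM factors) for 8 genes of the ureteric epithelium in the control and 880.0 to 917 CPM with LiCl, and 1943 to 2131 against 1367 to 1394 CPM for 8 genes of the ureteric mesenchyme. Of 8 genes of T and NK cells, *Cd3e* had no count and *Cd3d* and *Cd3g* at most 2, but *Lck* had 113 to 176, and the sum was 4.94 to 6.36 CPM in the control and 4.94 to 5.60 CPM with LiCl. Of 6 B cell genes, *Ms4a1* had no count, but *Cd79a* had 14 to 23, and *Cd79b* fell from 28, 35 and 35 counts to 17, 6 and 12 (log2 fold change -1.43, adjusted p = 0.0073, edgeR). The B cell sum was 2.16 to 2.30 CPM in the control and 1.35 to 1.51 CPM with LiCl. The 9 neutrophil genes together reached 0.13 to 0.73 CPM in the control and 0.14 to 1.32 CPM with LiCl. Libraries LiCl 1 and LiCl 3 stood apart in 6 skeletal muscle genes, with a sum of 29.9 and 61.4 CPM against 1.91 to 4.80 CPM in the other 4 samples. The part of these cell types in the results was not tested.

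More members were lower than higher after LiCl, and their fold changes spanned a wide range (the plot of fold changes by gene). At an adjusted p under 0.05 from edgeR's quasi-likelihood test over 18188 genes, 18 of the 33 members (54.5%) were lower and 3 (9.09%) were higher after LiCl, whereas 22.4% of all genes tested were lower and 21.1% were higher. With the fold change thresholds of the study, a log2 fold change below -1 or above 1, 6 members were called lower (*Fcgr1*, *Siglec1*, *Ly86*, *Fcgr3*, *Cx3cr1* and *Cd53*) and 1 was called higher (*Pf4*), against 4.59% and 2.74% of all genes. Of these, *Fcgr1*, *Siglec1*, *Ly86* and *Fcgr3* would not have been kept by their LiCl samples alone. The count minimum thus favoured them as decreases. The median log2 fold change of the members was -0.65, with quartiles of -0.85 and -0.03 and extremes of -2.56 and 2.96. Over all genes tested the median was -0.01. In 18 members (54.5%) every LiCl sample lay below every control sample, which held for 27.8% of all genes, and in 2 members (6.06%) every LiCl sample lay above, against 26.4% of all genes. In bulk tissue, fewer cells of a type and less RNA per cell cannot be told apart.

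**Figure D1:**
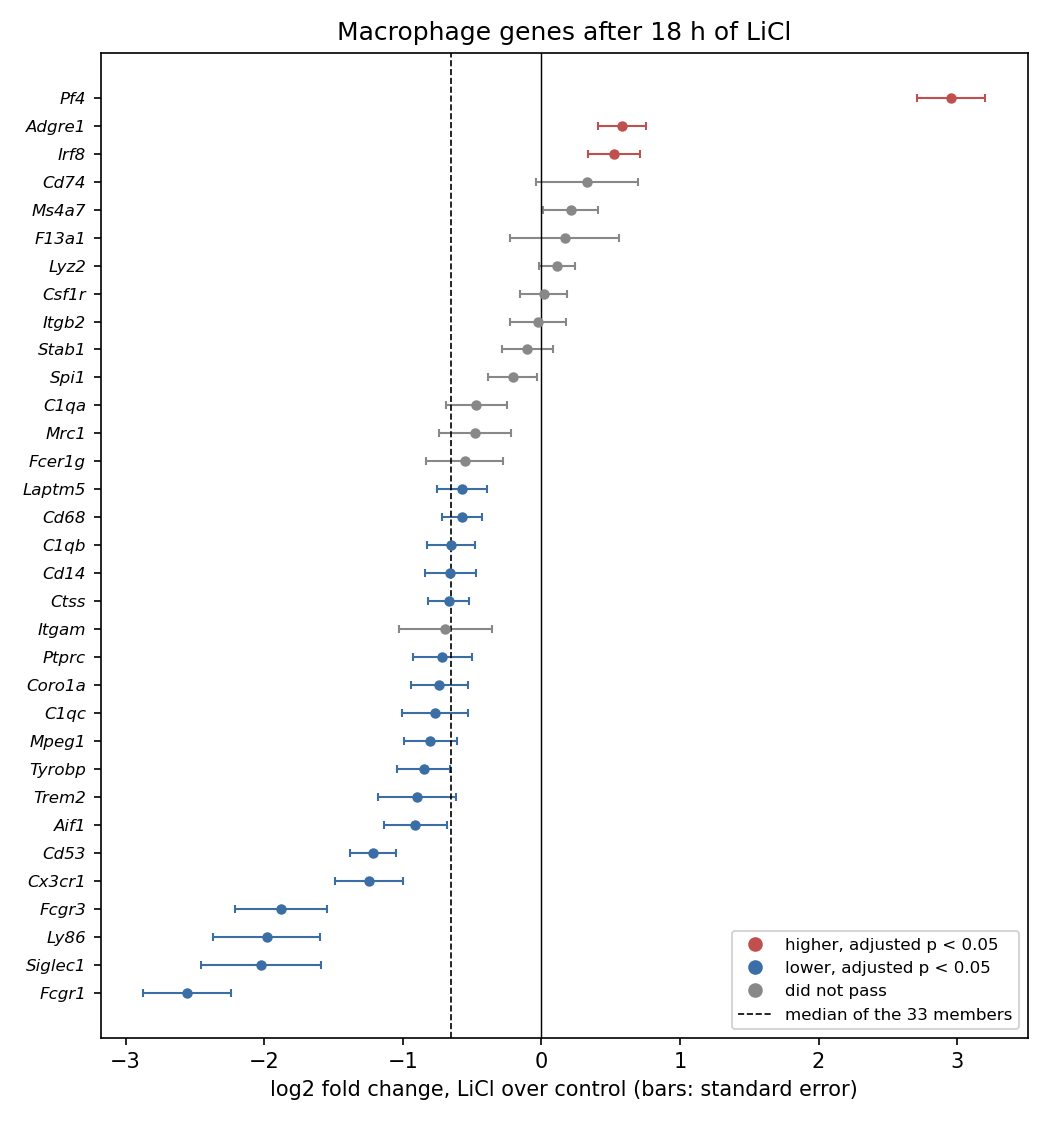
Log2 fold change (LiCl over control, x axis) of the 33 kept members with standard errors from edgeR's quasi-likelihood test, 3 samples per group. Colours mark adjusted p under 0.05 (red higher, blue lower) and grey the members that did not pass. The dashed line at -0.65 is the members' median. *Pf4* lies at 2.96 and *Fcgr1* at -2.56, with *Csf1r* at 0.02.

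Leaving out each sample in turn kept 12 of these 21 members past an adjusted p of 0.05 in all 6 fits, among them *Pf4* and the 6 called lower. The other 9 lost it in at least 1 fit. Without control replicate 3, the control sample with the highest levels of most members, *Trem2*, *C1qb*, *C1qc*, *Ptprc*, *Laptm5* and *Coro1a* did not pass (adjusted p from 0.054 to 0.12, edgeR). *Trem2*, *C1qc*, *Ptprc* and *Laptm5* also failed without LiCl replicate 1 or LiCl replicate 2, *Coro1a* without LiCl replicate 1, and *Cd14* without control replicate 2 or LiCl replicate 3. The smaller increases, those of *Adgre1* and *Irf8*, also failed to pass in some of these fits, each of which had fewer samples. *Adgre1* did not pass without LiCl replicate 3 (log2 fold change 0.49, adjusted p = 0.091, edgeR). *Irf8* did not pass without control replicate 1 or 2 or LiCl replicate 1 or 3 (adjusted p up to 0.16, edgeR).

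Among the receptors for growth and chemotactic signals, the 3 members took 3 different courses. *Csf1r* (ENSMUSG00000024621), the receptor for CSF1 and IL34 on which macrophage survival depends, had 18.5, 21.6 and 31.2 CPM in control replicates 1 to 3 and 22.5, 22.6 and 27.0 CPM with LiCl. All LiCl samples lay within the range of the controls, and the log2 fold change was 0.02 (standard error, SE, 0.17, adjusted p = 0.95, edgeR). *Cx3cr1* (ENSMUSG00000052336), the receptor of the chemokine fractalkine, had 14.1, 17.6 and 24.9 CPM in the control and 5.73, 7.55 and 10.7 CPM with LiCl, so the groups did not overlap. It fell by 1.24 on the log2 scale (SE 0.25, adjusted p = 0.0032, edgeR). *Adgre1* (ENSMUSG00000004730), which encodes the classical surface marker F4/80, had 5.60, 8.96 and 8.52 CPM in the control and 9.98, 11.6 and 13.1 CPM with LiCl. Every LiCl sample was above every control, with a log2 fold change of 0.58 (SE 0.18, adjusted p = 0.024, edgeR). Set against *Csf1r* in the same library, there were 0.76 to 0.82 CPM of *Cx3cr1* per CPM of *Csf1r* in the 3 controls and 0.25 to 0.40 with LiCl. The same ratio was 0.27 to 0.42 in the controls and 0.44 to 0.51 with LiCl for *Adgre1*. Of the ligands, *Csf1* lay at -0.26 (SE 0.11) on the log2 scale, *Il34* at 0.38 (SE 0.32) and *Cx3cl1*, which encodes fractalkine, at 0.32 (SE 0.20). None of the 3 passed at an adjusted p under 0.05 with edgeR or with DESeq2, and at an unadjusted p under 0.05 1 was lower with edgeR, *Csf1*.

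The Fc receptors held the strongest decrease of the list, while the log2 fold changes of the adaptors were smaller. *Fcgr1* (ENSMUSG00000015947), the high-affinity receptor for IgG, had 35, 51 and 57 counts in control samples and 7, 6 and 10 in LiCl samples, or 1.22, 1.64 and 1.86 CPM against 0.23, 0.21 and 0.35 CPM. The groups were far apart, 5.89-fold (log2 fold change -2.56, SE 0.32, adjusted p = 0.00025, edgeR). *Fcgr3* (ENSMUSG00000059498), a low-affinity receptor for IgG, was counted 38, 50 and 59 times in control samples and 8, 18 and 12 times in LiCl samples, without overlap. Its log2 fold change was -1.88 (SE 0.33, adjusted p = 0.0017, edgeR). *Fcgr3* shares sequence with *Fcgr2b* and *Fcgr4*, which had 1 to 5 and 2 to 10 counts per sample, so reads could be split between them. *Tyrobp* (ENSMUSG00000030579), the adaptor also called DAP12, had 5.36, 5.03 and 6.82 CPM in the control and 2.48, 3.19 and 3.90 CPM with LiCl. It fell by 0.85 (SE 0.19, adjusted p = 0.0065, edgeR). *Trem2* (ENSMUSG00000023992), a lipid-binding receptor that signals through TYROBP, had 5.91, 5.28 and 8.84 CPM in the control and 2.57, 2.97 and 5.25 CPM with LiCl, with a log2 fold change of -0.90 (SE 0.28, adjusted p = 0.029, edgeR). The highest LiCl sample of *Trem2* lay just under the lowest control. *Fcer1g* (ENSMUSG00000058715), the common gamma chain of Fc receptors, had 1.95, 3.12 and 2.77 CPM in the control and 1.32, 1.54 and 2.52 CPM with LiCl. The groups overlapped and it did not pass (log2 fold change -0.55, SE 0.28, adjusted p = 0.14, edgeR). *Fcgr1* and *Fcgr3* reached the count minimum only with the help of their control samples, which favoured them as decreases. Within a library, there were 0.53 to 0.67 CPM of *Fcgr1* per CPM of *Fcer1g* in the controls and 0.14 to 0.17 with LiCl. These ranges did not overlap. The ratio of *Trem2* to *Tyrobp*, by contrast, was 1.05 to 1.30 in the controls and 0.93 to 1.35 with LiCl, so the groups overlapped.

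**Figure D2:**
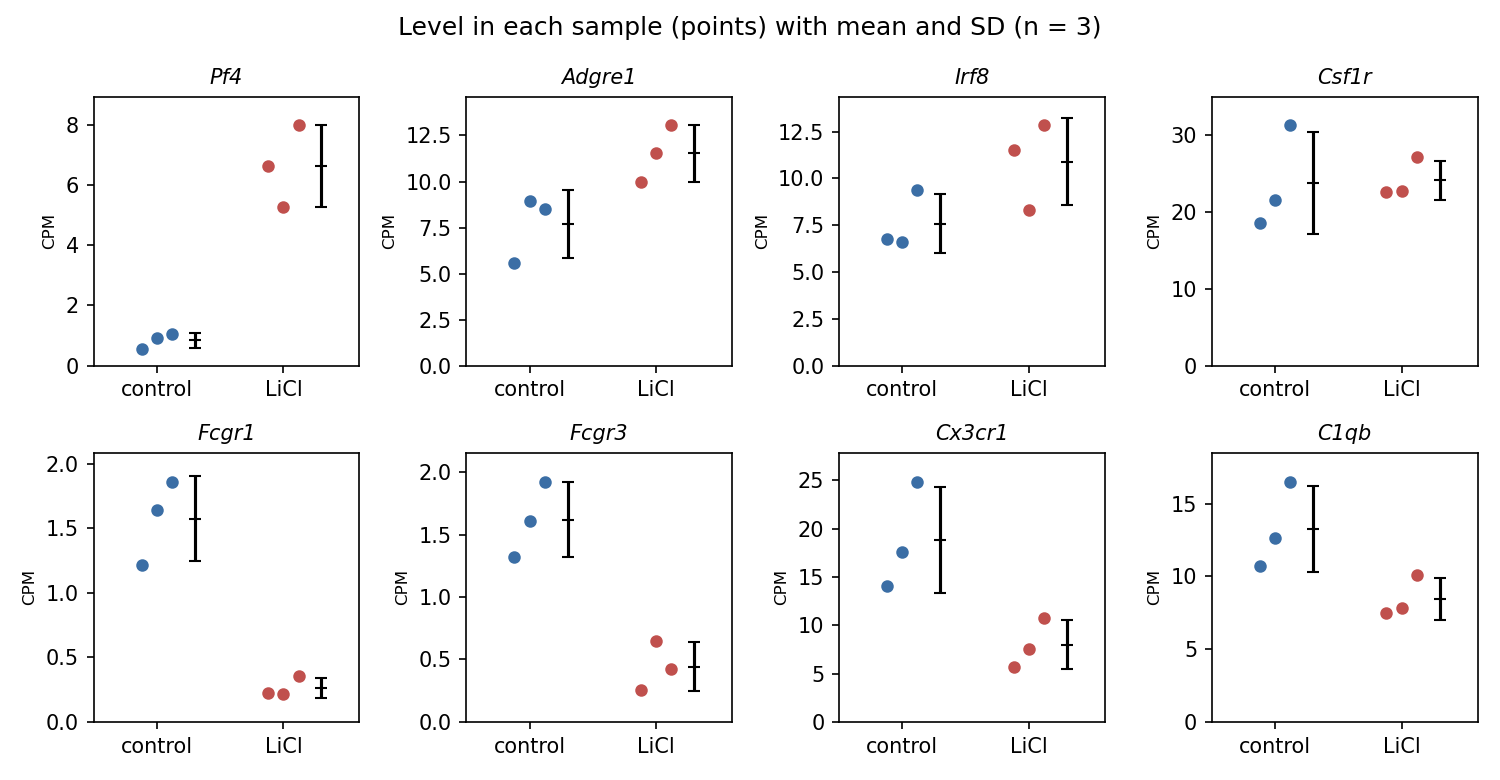
CPM (y axis, starting at 0) of 8 members in each of the 3 control (blue) and 3 LiCl samples (red), with mean and SD in black. All LiCl samples of *Pf4* and *Adgre1* lie above the controls and all of *Fcgr1*, *Fcgr3*, *Cx3cr1* and *C1qb* below, whereas those of *Csf1r* lie within the range of the controls and those of *Irf8* overlap it.

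The C1q chains, the A, B and C subunits of the recognition molecule of the classical complement pathway, had log2 fold changes between -0.77 and -0.47. *C1qa* (ENSMUSG00000036887) had 9.84, 13.4 and 16.6 CPM in the control and 8.43, 7.70 and 12.7 CPM with LiCl. *C1qb* (ENSMUSG00000036905) had 10.7, 12.6 and 16.5 CPM against 7.47, 7.80 and 10.1 CPM. *C1qc* (ENSMUSG00000036896) had 9.29, 11.8 and 17.6 CPM against 6.60, 6.52 and 9.61 CPM. The LiCl samples of *C1qb* all lay under the controls, while in *C1qa* and *C1qc* LiCl replicate 3 reached into their range. The log2 fold changes were -0.47 (SE 0.22), -0.65 (SE 0.17) and -0.77 (SE 0.24), of which those of *C1qb* and *C1qc* passed (adjusted p = 0.014 and 0.026, edgeR) and that of *C1qa* did not (adjusted p = 0.12). The difference between the chains was not tested. The ratio of *C1qa* to *C1qb* in CPM was 0.92 to 1.06 in the controls and 0.99 to 1.26 with LiCl, and that of *C1qb* to *C1qc* was 0.94 to 1.15 and 1.05 to 1.20, so both overlapped between the groups. The ratio of *C1qa* to *C1qc* did not overlap, with 0.94 to 1.14 in the controls and 1.18 to 1.33 with LiCl.

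Receptors for debris and for microbial products differed widely. *Siglec1* (ENSMUSG00000027322), the sialic acid receptor CD169, was counted 34, 64 and 69 times in control samples and 8, 8 and 23 times in LiCl samples, with no overlap and a log2 fold change of -2.02 (SE 0.43, adjusted p = 0.0048, edgeR). LiCl replicate 3 was the highest of its group, and without it the log2 fold change was -2.74. *Ly86* (ENSMUSG00000021423), also called MD-1, a partner of the Toll-like receptor homolog CD180, fell from 25, 42 and 54 counts to 7, 14 and 8 (log2 fold change -1.98, SE 0.39, adjusted p = 0.0030, edgeR). *Cd180* itself, no member of the list, fell by 0.92 (SE 0.24, adjusted p = 0.013, edgeR). *Cd14* (ENSMUSG00000051439), a co-receptor for lipopolysaccharide that other cells can also express, had 4.28, 5.93 and 3.98 CPM in the control and 2.90, 3.33 and 2.77 CPM with LiCl, and fell by 0.66 (SE 0.18, adjusted p = 0.017, edgeR). *Mrc1*, the mannose receptor CD206, did not pass, with 6.93 to 14.2 CPM in the control and 5.70 to 9.36 CPM with LiCl (log2 fold change -0.48, SE 0.26). *Stab1*, a scavenger receptor that endothelial cells express too, had the most counts of all members. It had 58.6, 54.1 and 74.7 CPM in the control and 44.1, 54.4 and 76.1 CPM with LiCl, with a log2 fold change of -0.10 (SE 0.18, adjusted p = 0.68, edgeR).

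Among the lysosomal and effector proteins stood the single large increase. *Pf4* (ENSMUSG00000029373), the chemokine CXCL4, which platelets and several tissue macrophages make, went from 16, 29 and 32 counts to 206, 147 and 225. This was a rise from 0.56, 0.93 and 1.04 CPM to 6.63, 5.26 and 7.98 CPM, or 7.77-fold (log2 fold change 2.96, SE 0.25, adjusted p = 2.4e-05, edgeR). The lowest LiCl sample, at 5.26 CPM, was far above the highest control, at 1.04 CPM, and the log2 fold change stayed between 2.74 and 3.14 with each sample left out. *Pf4* is also a platelet gene. Of 6 other genes of megakaryocytes and platelets, *Itga2b*, an integrin of the lineage, had 164, 166 and 201 counts without and 223, 170 and 150 with LiCl (log2 fold change 0.08, adjusted p = 0.69, edgeR). *Gp1ba*, a platelet glycoprotein, had a log2 fold change of 0.01, and *Gp9*, *Gp1bb* and *Gp6* had at most 4 counts in any sample. The 6 genes summed to 6.47 to 8.71 CPM in the control and 7.52 to 8.82 CPM with LiCl, and their part in the rise of *Pf4* was not tested. *Ppbp*, a platelet chemokine, rose by 1.28 (SE 0.31, adjusted p = 0.0095, edgeR), from 8, 14 and 19 counts to 31, 31 and 34. In the RefSeq gene order, *Ppbp* is a direct neighbour of *Pf4*. The neighbour on the other side, *Cxcl3*, rose from 1, 6 and 0 counts to 133, 118 and 108 (log2 fold change 5.66, SE 0.47). The next genes outward did not pass, *Cxcl5* beyond *Ppbp* with -0.38 (SE 0.27) and *Cxcl15* beyond *Cxcl3* with 0.37 (SE 0.18) on the log2 scale. Beyond *Cxcl15*, *Cxcl1* had 5, 8 and 3 counts without and 12, 9 and 21 with LiCl and was not tested, and *Cxcl2* rose by 2.96 (SE 0.37, adjusted p = 0.00026, edgeR).

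Of the 7 other effector genes 4 fell and 3 did not pass. *Mpeg1* (ENSMUSG00000046805), a pore-forming protein of the phagosome, had 35.7, 34.2 and 53.8 CPM in the control and 20.7, 20.7 and 29.7 CPM with LiCl, without overlap, and fell by 0.80 (SE 0.19, adjusted p = 0.0084, edgeR). *Aif1*, the calcium-binding protein IBA1, fell by 0.91 (SE 0.23), *Ctss*, the lysosomal protease cathepsin S, by 0.67 (SE 0.15) and *Cd68*, a lysosomal membrane protein, by 0.57 (SE 0.15), each with all LiCl samples under the controls (adjusted p = 0.010, 0.0060 and 0.011, edgeR). *Lyz2*, lysozyme, had 21.5, 24.9 and 22.5 CPM in the control and 26.2, 19.4 and 28.8 CPM with LiCl. Its groups overlapped (log2 fold change 0.11, SE 0.13, adjusted p = 0.52, edgeR), and reads of the near-identical *Lyz1*, which was listed with 1 to 11 counts per sample, could be mixed with it. *Ms4a7* and *F13a1*, which encodes a subunit of coagulation factor XIII, had log2 fold changes of 0.21 (SE 0.20) and 0.17 (SE 0.39) and did not pass. General lysosomal genes that most cells express did not fall with *Ctss* and *Cd68*. Of 13 such genes, 7 were higher and 0 were lower with edgeR, also at an unadjusted p under 0.05 and with DESeq2, with a median log2 fold change of 0.18. Among all genes tested, 21.1% were higher and 22.4% lower at an adjusted p under 0.05 (edgeR). *Ctsz*, *Psap* and *Lamp2* rose by 0.47, 0.42 and 0.34.

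Of the 7 genes shared by many leukocytes 4 fell and 3 did not pass. The share of all genes tested that fell was 22.4% (adjusted p under 0.05, edgeR). *Cd53* (ENSMUSG00000040747), a tetraspanin, had 4.31, 4.96 and 5.19 CPM in the control and 1.93, 1.86 and 2.45 CPM with LiCl, a decrease without overlap (log2 fold change -1.21, SE 0.17, adjusted p = 0.00041, edgeR). *Ptprc*, the phosphatase CD45, fell by 0.72 (SE 0.21, adjusted p = 0.023), *Coro1a*, an actin regulator, by 0.74 (SE 0.20, adjusted p = 0.016) and *Laptm5*, a lysosomal membrane protein of leukocytes, by 0.57 (SE 0.18, adjusted p = 0.029, all edgeR). The integrin chains *Itgam* (CD11b) and *Itgb2* (CD18) did not pass. *Itgb2* had a log2 fold change of -0.03 (SE 0.20) and *Itgam*, with only 10 to 24 counts per sample, of -0.69 (SE 0.34). *Cd74*, the invariant chain of MHC class II, was at 8 to 14 counts per sample and did not pass (log2 fold change 0.33, SE 0.37). The class II genes *H2-Aa* and *H2-Ab1* had at most 2 counts in any sample, and of the 4 class II genes tested 0 passed with edgeR or DESeq2, and 0 at an unadjusted p under 0.05.

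Of the 2 transcription factors of the list, *Irf8* was higher and *Spi1* did not pass. *Spi1* (ENSMUSG00000002111) had 4.14, 5.06 and 5.94 CPM in the control and 3.80, 4.12 and 5.21 CPM with LiCl, with overlapping groups (log2 fold change -0.21, SE 0.18, adjusted p = 0.37, edgeR). *Irf8* (ENSMUSG00000041515), which acts with PU.1 in myeloid cells, had 6.75, 6.60 and 9.40 CPM in the control and 11.5, 8.34 and 12.8 CPM with LiCl. LiCl replicate 2 lay within the range of the controls, and the increase was just past the threshold (log2 fold change 0.52, SE 0.19, adjusted p = 0.046, edgeR). Within each library the ratio of *Irf8* to *Spi1* was 1.31 to 1.63 in the controls and 2.03 to 3.03 with LiCl.

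The promoters of members that moved in opposite directions are shown because PU.1 binds purine-rich sites with the core GAGGAA. RefSeq promoter windows (GRCm38.p6, an older assembly than that of the counts) were found for 24 of the 33 members, with 30 windows of 250 bases before the start site. GAGGAA, searched on both strands, occurred in 16 of the 24 members, against 25.9% of all 27025 genes with a window. By window it occurred in 56.7% of those of members, against 23.3% of all 32851 windows. A composite ETS and IRF motif and the TCF/LEF motif CTTTGAT, both of which can share letters with GAGGAA, were searched in the same way. They occurred in 2.3% and 3.21% of all windows and in 0 of the 30 windows of members, too few windows to read a difference from. Capitals below mark GAGGAA or its reverse complement, 5′ to 3′ on the strand of the gene, for *Pf4* (chr5:90772185-90772434, plus strand), which rose, and *Fcgr1* (chr3:96293970-96294219, minus strand), *Fcgr3* (chr1:171059404-171059653, minus strand, the first of its 2 windows) and *Cx3cr1* (chr9:120068297-120068546, minus strand), which fell.
Pf4: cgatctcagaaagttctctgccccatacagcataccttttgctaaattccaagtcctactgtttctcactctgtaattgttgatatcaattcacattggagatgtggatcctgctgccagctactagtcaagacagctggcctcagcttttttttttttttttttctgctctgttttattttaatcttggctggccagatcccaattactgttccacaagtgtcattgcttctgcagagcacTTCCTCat
Fcgr1: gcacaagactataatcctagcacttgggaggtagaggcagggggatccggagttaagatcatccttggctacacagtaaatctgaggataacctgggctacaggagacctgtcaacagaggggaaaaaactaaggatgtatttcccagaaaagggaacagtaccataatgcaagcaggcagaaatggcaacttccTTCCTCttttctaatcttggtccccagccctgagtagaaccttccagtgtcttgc
Fcgr3: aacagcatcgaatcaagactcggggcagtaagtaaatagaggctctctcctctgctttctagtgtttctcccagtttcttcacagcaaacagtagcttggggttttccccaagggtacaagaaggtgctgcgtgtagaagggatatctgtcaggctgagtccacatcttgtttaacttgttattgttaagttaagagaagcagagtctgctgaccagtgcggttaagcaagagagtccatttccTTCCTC
Cx3cr1: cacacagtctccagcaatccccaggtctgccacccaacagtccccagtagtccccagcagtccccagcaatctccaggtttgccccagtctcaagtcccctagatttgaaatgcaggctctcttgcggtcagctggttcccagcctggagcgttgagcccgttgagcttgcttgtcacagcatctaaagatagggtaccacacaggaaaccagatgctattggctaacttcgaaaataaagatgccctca
The match lay from -8 to -3 before the start of *Pf4*, from -55 to -50 in *Fcgr1* and from -6 to -1 in *Fcgr3*, each on the opposite strand, and the window of *Cx3cr1* held none. A gene that rose and genes that fell thus carried the same letters. The windows of *Adgre1* and *Siglec1* were not analysed here.

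Levels of different genes can be set side by side only per transcript length, for which the deposited FPKM values (fragments scaled to transcript length and library size) were used. *Lyz2* was highest in both groups, with a mean of 17.2 FPKM in the control and 18.9 with LiCl. In the control *C1qa* (12.6), *C1qb* (12.1), *Cd68* (9.98), *Mpeg1* (9.41) and *Tyrobp* (8.50 FPKM) followed. The controls of *Lyz2*, 16.0 to 18.8 FPKM, lay above those of *C1qa*. The next genes in this order overlapped, since *C1qa* ran from 9.30 to 15.8, *C1qb* from 9.67 to 15.0 and *Cd68* from 8.67 to 12.3 FPKM in the controls. *Pf4* was number 22 of 33 in the control, at a mean of 1.16 FPKM, and number 3 with LiCl, at 9.20 FPKM (7.29 to 11.1). *Cx3cr1* went from number 11 (4.14 FPKM) to number 16 (1.78 FPKM) and *Adgre1* from number 17 (2.35 FPKM) to number 12 (3.57 FPKM). The lowest control levels belonged to *F13a1*, *Itgam* and *Cd74*, from 0.085 to 0.18 FPKM.

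**Figure D3:**
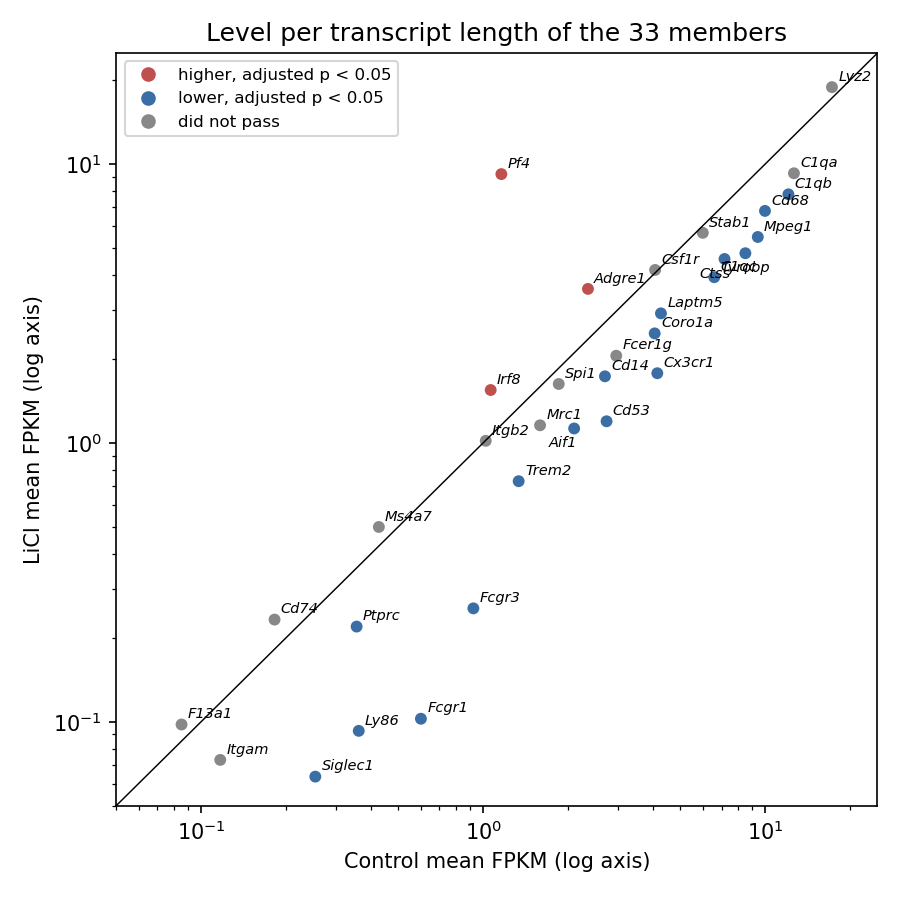
Mean FPKM of each kept member in the control (x axis) and with LiCl (y axis), both on log axes, n = 3 per group. The line marks equal levels. *Pf4* lies far above it (1.16 against 9.20 FPKM), *Lyz2* and *Csf1r* lie near it, and *Fcgr1* and *Siglec1* lie far below.

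Within a group, the members were high and low in the same samples (the plot of deviations from the group mean). In the control, 29 of the 33 members were highest in replicate 3, and all 33 were below their group mean in replicate 1. With LiCl, 26 of the 33 were highest in replicate 3. Among all genes tested, 27.4% and 28.3% were highest in these samples. Both held for 23 members (69.7%), against 9.42% of all genes. The median member deviated from its group mean by -0.28, 0.00 and 0.34 on the log2 scale in control replicates 1 to 3, and by -0.18, -0.10 and 0.26 in the LiCl replicates. The summed level of the 33 members was 286.7, 310.2 and 416 CPM in the control and 233.7, 240.6 and 322 CPM with LiCl. These groups overlapped, since LiCl replicate 3 lay above control replicates 1 and 2, and the ratio of the means was 0.79. A two-sided exact permutation test of 3 against 3 cannot give a p below 0.1, so none is given for the sum. Endothelial genes were highest in the same samples, in control replicate 3 for 9 and in LiCl replicate 3 for 10 of the 10 genes tested, with a summed level of 612 to 766 CPM in the control and 550 to 677 CPM with LiCl. Between the groups, 2 of the 10 endothelial genes were lower (*Tek* by 1.15 and *Ptprb* by 0.99) and 0 were higher at an adjusted p under 0.05 with edgeR. Among all genes tested, 22.4% were lower and 21.1% higher. At an unadjusted p under 0.05, and with DESeq2, 3 of the 10 endothelial genes were lower and 0 were higher. The part of endothelial cells in the macrophage values was not tested.

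**Figure D4:**
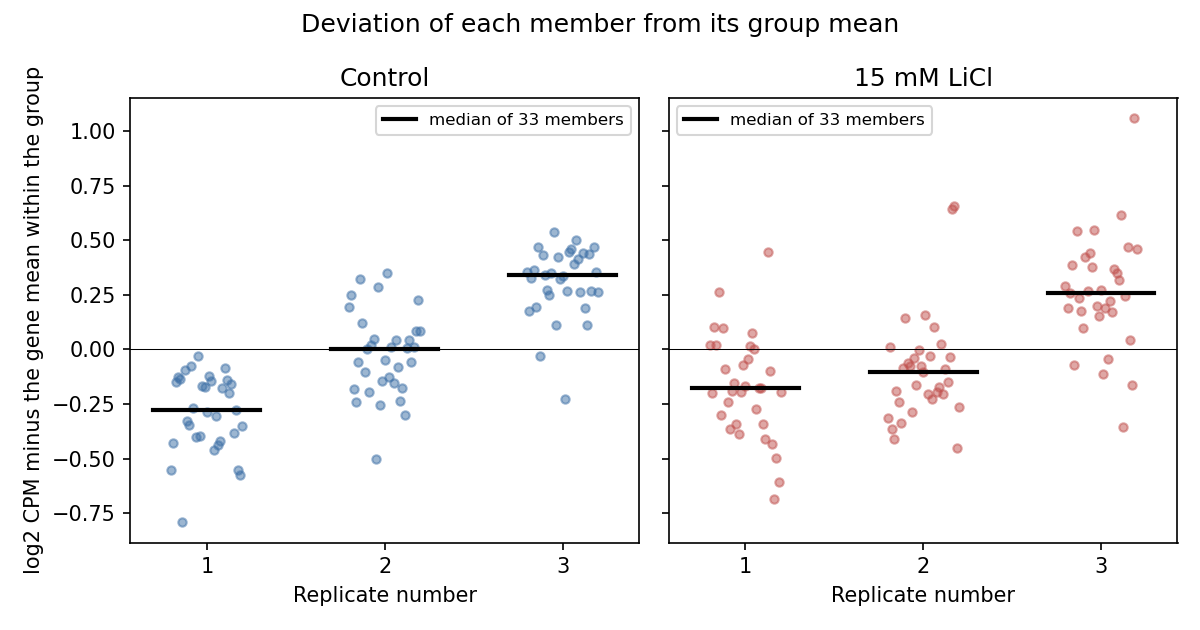
Log2 CPM of each of the 33 kept members minus its mean within the group (y axis), by replicate number (x axis), for control (blue) and LiCl (red). Points are members and black bars their medians. All control replicate 1 points lie below 0, and the medians of both samples numbered 3, 0.34 and 0.26, are the highest of their groups. Replicates have no order.

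To ask which members left the course of the others, the counts were scaled to the members themselves (size factors as the median of ratios over the 33 members) and refitted over all genes. By construction the median member is then near 0, and the spread is estimated mainly from genes outside the list. At an adjusted p under 0.05 (edgeR), 4 members (12.1%) were higher than the members as a group and 5 (15.2%) were lower. On this scale 34.5% of all genes were higher and 1.96% lower, against 21.1% and 22.4% with TMM factors. The scaling itself shifted the log2 fold changes of all genes upward, so these shares are no background for the members. The higher members were *Pf4* by 3.53 (SE 0.34), *Adgre1* by 1.14, *Irf8* by 1.09 and *Lyz2* by 0.64. The lower members were *Fcgr1* at -2.00, *Siglec1* at -1.48, *Ly86* at -1.38, *Fcgr3* at -1.31 and *Cx3cr1* at -0.68. All of these but *Cx3cr1* reached the count minimum only with the help of their control samples. *Pf4*, *Adgre1*, *Irf8* and *Fcgr1* passed in each of the 6 fits without 1 sample, whereas *Lyz2* passed in 1 of them, that without control replicate 1. The lower count varied with the sample left out. Without control replicate 2 or without LiCl replicate 1, *Fcgr1* alone passed, and without LiCl replicate 2 there were 3, *Fcgr1*, *Fcgr3* and *Ly86*. *Csf1r*, at 0.02 against all genes, lay 0.60 above the members and did not pass here (adjusted p = 0.054, edgeR). It passed with DESeq2, with the replicate number as a block and with both samples numbered 3 left out. Of the fits without 1 sample, *Csf1r* passed only in that without control replicate 3. The remaining 24 members did not pass, which does not show that they moved alike.

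Genes of macrophages and other leukocytes outside the 33 also went in both directions. Of 70 such genes 68 were tested, and 26 were lower and 4 higher at an adjusted p under 0.05 (edgeR), where 22.4% and 21.1% of all genes were. Their median log2 fold change was -0.43. Several of them, such as *Tgfbr1*, *Runx1* and *Sirpa*, are also expressed by other cells. Among those that fell were *Cd52*, a small surface glycoprotein of leukocytes (16, 47 and 46 counts against 8, 7 and 5, log2 fold change -2.36), *Clec7a*, the receptor Dectin-1 for fungal glucans (-1.90), and *Cd33*, a sialic acid receptor (-1.50). The 4 that rose were *Lyve1*, a hyaluronan receptor of some tissue macrophages and of lymphatic vessels, by 1.21 (35, 40 and 55 counts against 99, 61 and 129), *Tlr2* by 0.73, *Arhgap45* by 0.41 and *Cyba* by 0.22. These were named after their values were seen. Like the members, 49 of the 68 were highest in control replicate 3 and 49 in LiCl replicate 3. *Ccr2*, a receptor of monocytes, was counted 12, 10 and 14 times in control samples and 0, 1 and 0 times in LiCl samples. It was not tested because of its low counts. The only tested gene of the 6 for monocytes, *Plac8*, did not pass (log2 fold change -0.10, SE 0.09, adjusted p = 0.40, edgeR), and the 6 summed to 31.7 to 36.0 CPM in the control and 27.5 to 34.3 CPM with LiCl, with overlap. *Itgax* and *Zbtb46*, the tested genes of 6 for dendritic cells, were lower by 1.33 and 0.41. The sum over the 6 was 21.5 to 22.4 CPM in the control and 14.5 to 17.3 CPM with LiCl. *Zbtb46* alone held 19.8 to 20.6 CPM in the control and 13.7 to 16.6 CPM with LiCl. *Xcr1* had no count, and *Flt3*, *Siglech* and *Clec9a*, with at most 19 counts in any sample, were not tested. The part of monocytes and dendritic cells in the decrease of the leukocyte genes was not tested.

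Cytokine and activation genes showed no common direction. Of 28 listed genes 17 were tested, of which 4 were higher and 1 lower (edgeR), with a median log2 fold change of -0.05. Among all genes tested, 21.1% were higher and 22.4% lower. *Cxcl2*, a neutrophil chemokine from the same gene cluster as *Pf4*, rose from 4, 3 and 2 counts to 25, 21 and 24. *Il1rn*, the antagonist of the IL1 receptor, rose by 1.28, *Gpnmb*, a glycoprotein of lysosomes, by 0.97 and the costimulatory gene *Cd80* by 0.77, the last one just past the threshold (adjusted p = 0.048, edgeR). *Nos2*, the inducible nitric oxide synthase, named after its value was seen, fell by 0.69 (SE 0.15, adjusted p = 0.0049, edgeR). *Tnf*, which encodes a major inflammatory cytokine, had 10 to 23 counts in the controls and 11 to 14 with LiCl and did not pass, and *Il1b* and *Il6* had at most 7 counts in any sample. Whether macrophages or other cells of the explant made these transcripts was not tested.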

How the data were processed

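The authors deposited raw counts per gene, made by filtering reads, aligning them to GRCm39 and counting with featureCounts. The paper's methods name HISAT2 as the aligner, whereas the submitters' processing notes list STAR 2.7 beside fastp 0.23, featureCounts 2.0 and DESeq2 1.40. The strand setting and the annotation release are not given in the sources used here, so overlapping genes are uncertain. FPKM values of each sample were deposited too. Symbols from GENCODE vM21 were found for 52073 of the 56748 identifiers, and for all 35 listed genes.

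Counts were filtered with filterByExpr, scaled by TMM and compared by the quasi-likelihood test of edgeR 4.0.16 (R 4.3.3), and p-values were adjusted over all genes tested (Benjamini-Hochberg). Standard errors came from the coefficient and the F statistic. All 33 kept members passed the filter. The thresholds, 0.05 for the adjusted p and 1 for the absolute log2 fold change, follow the study. Alternatives were RLE factors, library size only, DESeq2 1.42.0, other filters, limma 3.58.1 on log2(FPKM + 1) and log2(FPKM + 0.1), the replicate number as a block, and each sample left out. Members and lists were chosen with earlier results of these data known. Every kept member is named, and of each other list up to 4 genes that passed, with the largest change. Further genes of other lists were named after their values were seen, and 2 that the rule names are not reported here. No sample was a duplicate of another, since counts within a group varied 5.94 to 14.5 times as much as sampling allows (chi-square over its degrees of freedom). On simulated counts of LiCl and control with 200 changed genes, edgeR recovered 99% among 18303 genes tested. In the deposited counts far more genes passed at an adjusted p under 0.05, 3844 higher and 4071 lower (edgeR). Recovery at the counts and fold changes of the members was not tested.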

Additional observations from a re-analysis of the deposited data

How the results depend on the processing

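All 33 members kept their direction wherever they passed in either setting. For the members called lower, 6 in the report, at least 10 counts in every sample left 2, since low genes leave the test. On log2(FPKM + 1) 0 passed the fold change minimum with or without a filter, since the pseudocount shrinks low genes, and on log2(FPKM + 0.1) 3 did. Without a minimum 18 were lower and 3 higher. At an adjusted p under 0.05, the 18 lower members became 11, 11 and 9 on these 3 FPKM settings (log2(FPKM + 1), log2(FPKM + 0.1) and log2(FPKM + 1) without filter), and the 3 higher became 1 on the last. With each sample left out, 5 to 8 members were called lower and 12 to 19 were lower and 1 to 4 higher at an adjusted p under 0.05. With both samples numbered 3 left out, chosen after seeing the data, 12 were lower and 1 higher (Pf4), and 7 members were higher than the members as a group. That count was 3 to 5 and the count of lower ones 1 to 5 with each sample left out. The members' median log2 fold change stayed between -0.73 and -0.39 and the ratio of the sums between 0.70 and 0.89 over all alternatives run for them. For all genes, 498 higher and 835 lower became 177 and 141 on log2(FPKM + 1), 171 and 139 without filter, 430 lower on log2(FPKM + 0.1), and 3844 and 4071 without a minimum.

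Whether equally numbered samples shared a litter or culture is not given in the sources used here. Over all genes tested, the deviations of equally numbered samples from their group means had correlations of -0.015, -0.18 and 0.13. Such weak correlations cannot decide whether samples were paired, and most members were highest in both samples numbered 3. With the replicate number as a block, 19 members were lower and 3 higher, and 8 in place of 4 were higher than the members as a group.

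Sign changes occurred only in genes that did not pass in either setting. With each sample left out, Csf1r ran from -0.13 to 0.27, Stab1 from -0.34 to 0.066, Lyz2 from -0.0024 to 0.26, F13a1 from -0.14 to 0.40, Itgb2 from -0.18 to 0.17, H2-DMa from -0.059 to 0.19 and Itga2b from -0.039 to 0.18. Csf1r was at -0.020 with library size only. With both samples numbered 3 left out, Lyz2 was at -0.023, H2-DMa at -0.021 and Itgb2 at 0.12. Itgb2 was at 0.0008 with no filter, at 0.0021 on log2(FPKM + 1) with and without filter and at 0.011 on log2(FPKM + 0.1). The cause was not tested. Of the other values of single genes, 99 were weaker and 24 stronger, and 1059 kept direction and side. Low counts, 6 to 59 per sample for Fcgr1 and Fcgr3, limit precision to their standard errors.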
